A study of Mus musculus with 2 samples.

Results

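The cells described are neutrophils with high S100a8 and S100a9 from MC38 tumors, a mouse colon adenocarcinoma line grown under the skin of C57BL/6 mice. They were selected on measured values, namely at least 500 detected genes, at most 20% of UMIs (unique molecular identifiers, each counted as 1 transcript molecule) from mitochondrial genes, at least 1% of UMIs from S100a8 and S100a9, at least 1 UMI of Retnlg, Hdc or Csf3r, and under 0.1% of UMIs from C1qa, C1qb and C1qc. Of 29003 barcodes 2537 were members, 2521 from the library of MSA-2–treated tumors and 16 from the library of untreated tumors. MSA-2 is a non-nucleotide agonist of STING, the adaptor of cytosolic DNA sensing. Mice were 6 to 8 weeks old, and both groups received injections into the tumor, 3 times at intervals of 3 days. The control group, labelled untreated, received the vehicle, saline with 10% DMSO, and the treated group received MSA-2. Tumors of 3 mice were pooled into 1 library for each condition, so the spread between tumors is not known and no test between the conditions was possible. The libraries held 198135335 UMIs (untreated) and 204387165 UMIs (MSA-2). Intervals in parentheses are exact at 95% and cover counting error only, and CPM gives the UMIs of a gene summed over a set of barcodes, scaled to counts per 10 to the power of 6.

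Neutrophils are short-lived granulocytes that leave the bone marrow under G-CSF and follow CXCR2 ligands into inflamed tissue. Their granule proteins are transcribed in waves during maturation in the marrow, while the transcripts of a mature cell in tissue are few and dominated by S100a8 and S100a9 (the subunits of calprotectin), cytokines and chemokines. In tumors they are known to take up states that range from freshly recruited to long-resident, and type I interferon is known to change their gene expression.

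Of the barcodes that passed the limits on genes and mitochondrial UMIs, members made up 16 of 14039 in the untreated library (0.114%, 0.0652% to 0.185%) and 2521 of 13963 in the MSA-2 library (18.1%, 17.4% to 18.7%). The log2 ratio of these shares was 7.31 (6.61 to 8.12). Cells were sorted before loading with a gate that is not stated, and its part in this ratio was not tested. Members were shallow, with a median of 1280 UMIs in untreated and 1851 UMIs in MSA-2 members, against 8793 and 13626.5 UMIs in the other barcodes that passed the same limits. Of the barcodes, 53 carried a sequence found in both libraries, 10 of them MSA-2 members and 0 untreated members.

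The thresholds cut through a continuum more in some measures than in others. In the MSA-2 library the lowest member had 1.004% of UMIs from S100a8 and S100a9, the nearest barcode outside that met the other limits had 0.994%, and 20 and 24 barcodes lay within 10% of the limit on the inner and outer side. In the untreated library these values were 1.18% and 0.882%, with no barcode that close on either side. Outside this limit, 5676 MSA-2 and 385 untreated barcodes met all the others. For the limit of 500 genes, 185 MSA-2 members lay within 10% of it, and 240 barcodes met every limit but this, 120 of them within 10%. The C1q limit separated 0.0990% from 0.101% in the MSA-2 library, with 78 barcodes outside, and 0.0931% from 0.146% in the untreated library, with 4 outside. A single marker UMI carried 100 MSA-2 members and 1 untreated member, and 65 MSA-2 barcodes had none. The highest mitochondrial share of a member was 15.1% in MSA-2 and 1.23% in untreated, and the only barcode that failed on this limit alone had 22.7%.

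**Figure D1:**
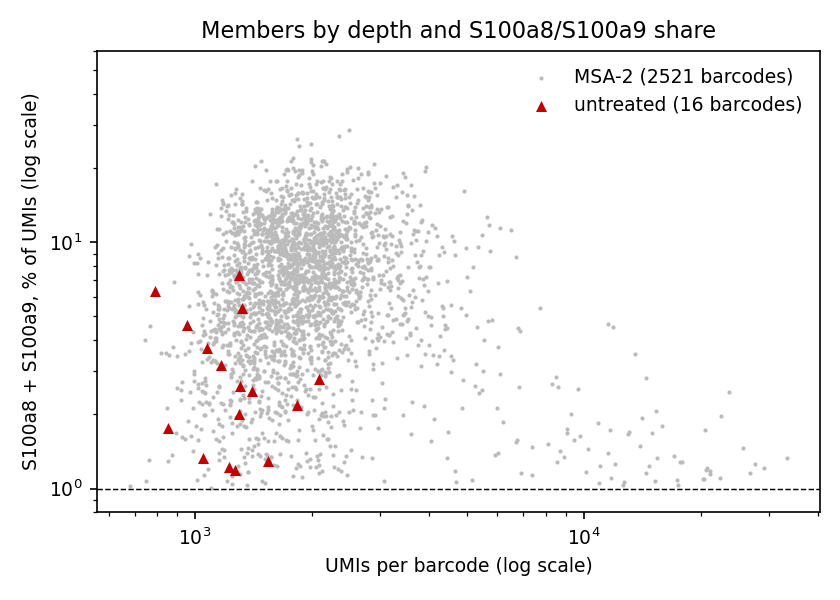
Each point is a member barcode, with its UMIs on the horizontal axis and the percent of UMIs from S100a8 and S100a9 on the vertical axis, both on log scales. Grey points are the 2521 MSA-2 members, red triangles the 16 untreated members, and the dashed line is the 1% limit. Untreated members lie between 1.18% and 7.34% and at 2088 UMIs or fewer, inside the range of the MSA-2 members.

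The label held against the markers. S100a9 measured 42639.9 CPM (42473 to 42808) in MSA-2 and 19671 CPM (17795 to 21691) in untreated members, and S100a8 25374 CPM (25245 to 25504) and 10129 CPM (8796 to 11607). These genes and Retnlg, a resistin-like secreted protein, Hdc, the histamine-forming enzyme, and Csf3r, the G-CSF receptor, chose the members and are given as a description. Genes that the rule did not use carried the same identity in MSA-2 members, among them the chemokine receptor Cxcr2 at 165 CPM (155 to 176), the decoy receptor Il1r2 at 778 CPM (755 to 801), Trem1 at 941 CPM (917 to 966) and the formyl peptide receptor Fpr1 at 952 CPM (927 to 977). In the C1q macrophages of the same library, taken as barcodes with at least 0.5% of UMIs from C1qa, C1qb and C1qc, they measured 1.55, 31.5, 26.2 and 35.8 CPM. Ly6g, the surface protein used to gate mouse neutrophils, reached 139 CPM (129 to 149) in MSA-2 members and 0 UMIs in untreated members, where a count of 0 allows up to 147 CPM. After thinning every barcode to 1000 UMIs, which left out 37 MSA-2 members and 3 untreated members, Ly6g had a UMI in 11.2% of MSA-2 members (18% unthinned) and in 0% of T cells of the same library, whose median depth was 5146.5 UMIs. The thinned share was 16.5% for Cxcr2 (28.6% unthinned) against 0.621% in T cells, so neither gene was detected in most members, while both shares were above those of T cells.

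Neutrophil transcripts were also found in other cells of the MSA-2 library. Its T cells, taken as barcodes with at least 2 UMIs of Cd3d, Cd3e and Cd3g, had a UMI of S100a9 in 19.3% of thinned barcodes and of Cxcl2 in 32.9%, while in untreated T cells, with a median of 3709 UMIs, the shares were 0.0778% and 6.22%. MSA-2 T cells summed to 857 CPM of Cxcl2, far below the members described later, and to 309.7 CPM of S100a9, for which the selection itself set the members apart. Markers of other cell types were summed in both groups. The B and plasma cell list (6 genes) summed to 0.684 CPM in MSA-2 and 0 in untreated members, the keratin and epithelial list (8 genes) to 0.854 CPM and 0, and the dendritic list (8 genes) to 10.8 CPM (4.94 without sub-clusters 5 and 6) and 48.9 CPM. The macrophage list (10 genes, most abundant Apoe) summed to 401 CPM (385 to 417) in MSA-2 and 1713 CPM (1193 to 2382) in untreated members, and 7 of its 10 genes had a UMI in untreated members, with Mrc1, Trem2 and Csf1r at 0. The list holds C1qa, C1qb and C1qc, which the selection kept low. T cells of the untreated library summed to 827 CPM of this list. The fibroblast and endothelial list (8 genes) summed to 1438 CPM (1408 to 1469), with Col3a1 the most abundant, and to 832 CPM (485 to 1332), with Pdgfra, Pecam1, Cdh5 and Kdr at 0 in untreated members. Without sub-clusters 5 and 6 the MSA-2 sum of this list was 675 CPM, so that the direction turned, with a log2 ratio of 0.79 (0.11 to 1.57) with them and -0.30 without. The Ly6c2 monocyte list (10 genes) summed to 845 CPM, or 586 without sub-clusters 5 and 6, and 685 CPM, so that its direction turned as well, the list of T and NK cells (10 genes) to 71.3 CPM and 0, that of mast cells, basophils and eosinophils (10 genes) to 59.3 CPM and 0, and that of red cells (5 genes) to 0.342 CPM and 0.

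Part of these MSA-2 sums came from few barcodes. Among MSA-2 members 138 had over 4000 UMIs and held 22.3% of all member UMIs, and 77 had over 2000 detected genes. Scrublet, a caller of barcodes with 2 cells, marked 64 of the 2521 MSA-2 members and 0 of the 16 untreated ones, and 63 of the 64 fell into sub-clusters 5 and 6, whose leading genes include markers of other cell types. These 134 barcodes were kept in the main sums.

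The 16 untreated members were described apart. Each had between 789 and 2088 UMIs and between 509 and 935 genes, and together they held 20436 UMIs, so that 1 UMI was 48.9 CPM and their values rest on few molecules. Hdc had a UMI in 16 of 16, but Retnlg and Csf3r in 10 of 16 each. Cxcl2, a neutrophil-attracting CXCR2 ligand, was their most abundant transcript at 40223 CPM (37520.1 to 43069.5), with 7 to 167 UMIs per barcode and a median of 36. Il1b, the inflammasome cytokine, followed the ferritin gene Fth1 and S100a9 at 18105 CPM (16307 to 20047), with 7 to 69 UMIs and a median of 20.5. Both were present in all 16 barcodes. Other chemokines were uneven among the 16. Ccl3 had a UMI in 10 of them, with a median of 3.5 and a highest value of 79 UMIs. Spp1, the matrix protein osteopontin, stood at 3817 CPM, but 77 of its 78 UMIs were in a single barcode, and 50% of the 42 UMIs of Cxcl10 also lay in a single barcode. The untreated Spp1 value therefore describes a single cell.

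Interferon-stimulated genes, the antiviral and GTPase genes induced by type I interferon, were higher in MSA-2 members by sum, with either scaling, and by median per barcode. The list of 48 genes, 46 of them among the features, summed to 40347 CPM (40184 to 40510) in MSA-2 and 12918 CPM (11407 to 14574) in untreated members, a log2 ratio of 1.64 (1.47 to 1.82). It was 1.79 without sub-clusters 5 and 6. The list was also higher in other cells of the MSA-2 library than in those of the untreated library. It summed to 28497 against 10851 CPM in C1q macrophages and 13489 against 4489 CPM in T cells. In Ly6c2 monocytes, described later, it summed to 21804 against 6955 CPM. Of the genes with a mean of at least 100 CPM over both sums, 161 of 1447 (11.1%) were at least 2-fold higher in MSA-2 members and 448 (31%) at least 2-fold lower, on a scale of log2 of CPM plus 10. Of the listed genes 38 passed this filter, and 26 were at least 2-fold higher and 0 at least 2-fold lower, with a median log2 ratio of 1.57 against -0.49 over all 1447 genes. A gene with few untreated UMIs passed the filter more easily where it was high, so these counts describe the sums and were not tested.

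Among single genes, Rsad2, which encodes the antiviral enzyme viperin, measured 4612 CPM (4557 to 4668) in MSA-2 and 587 CPM (303 to 1026) in untreated members, a ratio of 7.85-fold (4.5 to 15.2). Ifit3, a protein that binds viral RNA, measured 2434 CPM (2394 to 2474) and 440.4 CPM (201 to 836), and its near-identical copy Ifit3b 542 and 147 CPM, so the split between the pair is uncertain. Ifit1 measured 1583 CPM (1551 to 1615) in MSA-2 members and, from 2 UMIs, 97.9 CPM in untreated ones, a ratio of 16.2-fold (4.48 to 134). Usp18, the negative regulator of the interferon receptor, and Cmpk2, the mitochondrial nucleotide kinase, had 0 UMIs in untreated members and were at least 3.76-fold and at least 2.41-fold higher in MSA-2 members, counting 0 as 3 UMIs over the group. The ubiquitin-like Isg15 was closer, with 3056 CPM (3012 to 3101) and 1125 CPM (713 to 1689). Ifitm1, a membrane protein that restricts viral entry, was close in both, at 1505 CPM (1473 to 1536) and 1370.1 CPM (910.4 to 1980.2), a log2 ratio of 0.14 (-0.40 to 0.73). Samhd1, which limits viral DNA synthesis, was lower on the CPM scale, at 529 CPM (510.3 to 548) and 685 CPM (375 to 1149), and higher with the TMM factors. The genes of this group thus differed in their distance between the sums.

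Per barcode, the interferon-stimulated list took 0.21% of UMIs in the lowest, 0.964% in the median and 3.92% in the highest untreated member. In MSA-2 members the lowest value was 0.409%, the median 4.39% and the highest 12%. The groups overlapped, but 0 of 16 untreated members lay above the MSA-2 median and 11 of 16 lay below the 5th percentile of MSA-2 members. Slfn4, a Schlafen gene of myeloid cells, had a UMI in 91.9% of thinned MSA-2 members (98% unthinned) and 53.8% of thinned untreated members (50% unthinned), against 4.97% and 0.0778% of T cells of the same libraries. By contrast Ifit1 had a UMI in 69.5% of thinned MSA-2 members and 74.5% of thinned T cells, which can themselves express it, so its share has no background of this kind.

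The 250 bases before the transcription starts of listed genes were searched in RefSeq promoters of build GRCm38.p6. Listed genes were taken whether or not they were higher in MSA-2 members. An interferon motif was written as GAAA, any 2 bases and GAAA, and an NF-kB motif as GGGA, any 2 bases and TTCC, each on both strands. The interferon motif was present in 19 of 38 listed interferon-stimulated genes with a promoter in the table (50%) and in 936 of all 27025 genes (3.46%). These 38 are not the same genes as the 38 that passed the filter above. The list was drawn up as interferon-stimulated genes, so this share describes the list and not the cells. The NF-kB motif was present in 4 of the 38 and in 368 of all genes (1.36%). Among the 10 genes of the inflammatory list with a promoter, 5 held the NF-kB motif and 1 the interferon motif. The 4 promoters printed here were chosen after the matches had been seen, and they are 2 interferon-stimulated genes (Isg15 at chr4:156200819-156201068, minus strand, and Rsad2 at chr12:26456453-26456702, minus strand), Cxcl10, which held both motifs (chr5:92348890-92349139, minus strand), and Cxcl2, the most abundant transcript (chr5:90903649-90903898, plus strand). Capitals mark the matches, which overlap in Isg15 (3 matches) and Cxcl2 (2 matches), and a match is a description of the sequence only.
Isg15: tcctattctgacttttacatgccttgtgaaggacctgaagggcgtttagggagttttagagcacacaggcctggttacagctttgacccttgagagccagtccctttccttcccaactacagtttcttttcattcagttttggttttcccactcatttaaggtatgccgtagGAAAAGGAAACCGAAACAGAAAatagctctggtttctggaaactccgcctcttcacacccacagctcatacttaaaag
Rsad2: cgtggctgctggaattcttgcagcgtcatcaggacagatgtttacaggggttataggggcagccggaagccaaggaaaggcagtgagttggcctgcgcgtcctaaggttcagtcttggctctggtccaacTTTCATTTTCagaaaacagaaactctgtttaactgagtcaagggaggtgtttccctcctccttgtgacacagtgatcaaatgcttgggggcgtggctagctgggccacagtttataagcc
Cxcl10: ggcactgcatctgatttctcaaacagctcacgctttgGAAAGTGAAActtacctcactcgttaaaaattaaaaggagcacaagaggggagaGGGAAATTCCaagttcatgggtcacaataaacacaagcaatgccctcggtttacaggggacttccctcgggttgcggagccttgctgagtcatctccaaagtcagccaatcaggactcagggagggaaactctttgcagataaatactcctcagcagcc
Cxcl2: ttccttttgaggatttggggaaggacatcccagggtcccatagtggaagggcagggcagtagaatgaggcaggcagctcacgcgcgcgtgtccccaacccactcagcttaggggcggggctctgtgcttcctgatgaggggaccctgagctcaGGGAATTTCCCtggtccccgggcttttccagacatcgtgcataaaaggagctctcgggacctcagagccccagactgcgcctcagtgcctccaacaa

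Cytokines and chemokines made up much of the transcriptome of members in both libraries. The inflammatory list of 12 genes summed to 116984 CPM (116707 to 117262) in MSA-2 and 85046 CPM (81094 to 89140.5) in untreated members, a log2 ratio of 0.46 (0.39 to 0.53). The ratio of the sum was positive while the median over the 11 listed genes that passed the filter was -0.17, since few abundant genes set the sum, and without sub-clusters 5 and 6 this median was 0.08. Of these genes 3 were at least 2-fold higher and 0 at least 2-fold lower, beside 11.1% and 31% of all genes, and the list median lay above the -0.49 of all genes. The sum rose to a log2 ratio of 0.69 without sub-clusters 5 and 6, which hold little of the list. It rose to 1.61 with the TMM factors and to 1.78 with barcodes under the S100 limit added, both described later. Per barcode, the list took a median of 5.88% of UMIs in untreated members, with a range of 1.29% to 23.1%. In MSA-2 members the median was 12.9%, with a range of 0.617% to 35%. Of the 16 untreated members, 4 lay above this median and 6 below the 5th percentile of MSA-2 members. The inflammatory list was also higher in other cells of the MSA-2 library than in those of the untreated library. It summed to 29038 against 17226.5 CPM in C1q macrophages, 26078 against 5960 CPM in Ly6c2 monocytes and 13060 against 3422 CPM in T cells.

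Cxcl2 was the most abundant transcript of both groups, at 61104 CPM (60903 to 61304) in MSA-2 members beside the untreated value given above, and it ranked ahead of S100a9. Ccl4, a CC chemokine, measured 17281 CPM (17174 to 17388) in MSA-2 and 5481 CPM (4513 to 6594) in untreated members, a ratio of 3.15-fold (2.62 to 3.83). It had a UMI in 9 of 16 untreated members, and a single barcode held 36.6% of its untreated UMIs. Cxcl10, the interferon-inducible ligand of CXCR3 on T cells, measured 9303 CPM (9225 to 9381) and 2055 CPM (1481 to 2778), a ratio of 4.53-fold (3.35 to 6.28). For Cxcl10 a single barcode held 50% of the untreated UMIs. The sums of Ccl3 and Il1b went the other way. Ccl3 measured 8972 CPM (8896 to 9049) and 12135 CPM (10672 to 13744), and Il1b 13266 CPM (13173 to 13360) and 18105 CPM (16307 to 20047). With edgeR's TMM factors, an alternative that scales the sums by the bulk of genes and adds 1.15 to every log2 ratio, both turned to higher in MSA-2 members. For Ccl3 a single barcode held 31.9% of the untreated UMIs, and its median per barcode was lower in untreated members, at 0.287% against 0.785%. Without sub-clusters 5 and 6 they stood at 10701 and 15797 CPM, closer to the untreated values. The cytokine Osm was similar, at 891 CPM (867 to 916) and 783 CPM (448 to 1271). Il6 measured 62.9 CPM (56.6 to 69.7) in MSA-2 members and 0 UMIs in untreated ones, which allows up to 147 CPM there. Without sub-clusters 5 and 6 it fell to 25.8 CPM in MSA-2 members.

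Ifnb1, which encodes interferon beta, measured 77.2 CPM (70.3 to 84.7) in MSA-2 members and 0 UMIs in untreated ones, under the 147 CPM that a count of 0 allows there. Most of this was in sub-clusters 5 and 6. It fell to 26.9 CPM without sub-clusters 5 and 6, close to the 37.1 CPM of T cells of the same library, while Ly6c2 monocytes and C1q macrophages of that library stood at 964 and 919.7 CPM. Members of sub-clusters 1 to 4, although high in interferon-stimulated genes, were thus low in Ifnb1. In the relay that MSA-2 addresses several genes were low in members, among them Tmem173, the gene of STING, at 4.96 CPM (3.32 to 7.12) and 0 UMIs and the DNA sensor Cgas at 30.9 CPM (26.6 to 35.8) and 0 UMIs in MSA-2 and untreated members. Tmem173 measured 40.4 CPM in C1q macrophages of the same library. The kinase Tbk1 measured 182 CPM (172 to 194) in MSA-2 members and, from 2 UMIs, 97.9 CPM in untreated ones. The relay list as a whole was not low in members, but it is wider than Tmem173, Cgas and Tbk1. It also holds Toll-like and interferon receptor genes, and Zbp1, which is on the interferon-stimulated list as well. Its sum was 1352 CPM (1322 to 1382) in MSA-2 members, with Zbp1 the most abundant at 511 CPM. In untreated members the sum was 1077 CPM (675 to 1630). Ly6c2 monocytes and C1q macrophages of the MSA-2 library stood at 801 and 1098 CPM.

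Granule genes placed the MSA-2 members at the late end of maturation. In untreated members a count of 0 allows up to 147 CPM, above the Ngp level of MSA-2 members, so their place is less certain. Mpo and Ctsg, proteins of the primary granules made by promyelocytes, had 0 UMIs in both groups, and Elane, Prtn3 and Ms4a3 had 3, 17 and 1 UMIs among 5851729 MSA-2 member UMIs. Of secondary granule genes, Ltf and Camp measured 5.64 and 10.6 CPM, while Ngp reached 71.1 CPM (64.4 to 78.3) and the siderophore-binding Lcn2 2668 CPM (2626 to 2709.9) in MSA-2 members. Untreated members had 0 UMIs of Ltf, Camp and Ngp and 587 CPM (303 to 1026) of Lcn2, a ratio of 4.54-fold (2.6 to 8.79), with 58.3% of its 12 untreated UMIs in a single barcode. The secondary granule list of 7 genes gave a log2 ratio of 1.69 (1.10 to 2.35), set largely by Lcn2 and thus in part by that barcode. Mmp8, the collagenase of tertiary granules, measured 386 CPM (370.1 to 402) in MSA-2 members and 1 UMI in untreated members, a ratio of 7.89-fold (1.41 to 312). The 10 proliferation genes summed to 1104 CPM (1077 to 1131), or 916 without sub-clusters 5 and 6, and 1028 CPM (636 to 1571), with no stable direction, and Mki67, a marker of cycling cells, measured 24.8 CPM and 0 UMIs.

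Receptors and identity genes were then compared. Over the 28 genes of the surface and identity list, 22 passed the filter, 3 were at least 2-fold higher and 3 at least 2-fold lower in MSA-2 members, beside 11.1% and 31% of all genes, with a median log2 ratio of 0.43 against -0.49. Slpi, an inhibitor of neutrophil elastase, measured 7271 CPM (7202 to 7340.1) in MSA-2 and 1908 CPM (1357 to 2609) in untreated members, a ratio of 3.81-fold (2.79 to 5.36). G0s2, a lipase inhibitor abundant in neutrophils, was close in both, at 9790.3 CPM (9710.3 to 9871) and 9297 CPM (8022 to 10717), a log2 ratio of 0.07 (-0.13 to 0.29). Lower in MSA-2 members were Cxcr4, the receptor of marrow retention and of aged neutrophils, at 14.9 CPM (11.9 to 18.3) against 343 CPM (138 to 706) from 7 UMIs, and Cd24a at 127 CPM (118 to 137) against 881 CPM (522 to 1392). Both directions held with the TMM factors. Csf3r measured 245 CPM (233 to 258) against 783 CPM (448 to 1271) from 16 UMIs, but it is a gene of the rule, which needs 1 UMI of it, Retnlg or Hdc in barcodes of any depth, and is a description only. Siglecf, reported on other neutrophil states in tumors, was at 0 UMIs in untreated and 3 UMIs in MSA-2 members.

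Genes of immune suppression, hypoxia and survival were measured in both groups. Cd274, which encodes the checkpoint ligand PD-L1, measured 1633 CPM (1600.1 to 1666) in MSA-2 and 587 CPM (303 to 1026) in untreated members, a ratio of 2.78-fold (1.59 to 5.38). Wfdc17, a whey acidic protein made by activated phagocytes, measured 3124 CPM (3079 to 3169) and 391 CPM (169 to 771), with 62.5% of its 8 untreated UMIs in a single barcode. Nos2, the inducible nitric oxide synthase, measured 106 CPM (97.4 to 114) in MSA-2 members and 0 UMIs in untreated ones. A count of 0 allows up to 147 CPM there, so no direction can be given. The list of suppressive genes gave a log2 ratio of 0.54 (0.29 to 0.81), which rested on Wfdc17, while of 10 genes that passed the filter 3 were at least 2-fold higher and 2 lower, beside 11.1% and 31% of all genes, with a median of -0.32 against -0.49. The hypoxia and glycolysis list of 24 genes was lower, with 6523 CPM (6457 to 6588) against 8514 CPM (7296 to 9878) and a log2 ratio of -0.38 (-0.60 to -0.16), which turned to 0.76 with the TMM factors. The same held for the colony-stimulating factor list of receptors and signalling genes, which holds the rule gene Csf3r, at -0.74 (-0.93 to -0.54) and 0.41. The survival and death list gave -0.27 (-0.51 to -0.02), which became -0.09 without sub-clusters 5 and 6 and 0.88 with the TMM factors, and the median of its genes was 0.35, so it had no stable direction. Mcl1, the survival factor on which neutrophils depend, measured 2284 CPM (2246 to 2323) and 2985 CPM (2283 to 3834). The inflammasome sensor Nlrp3 measured 1151 CPM (1123 to 1178) and 2251 CPM (1648 to 3002). Both turned to higher in MSA-2 members with the TMM factors, Nlrp3 by 0.18 on the log2 scale and Mcl1 by more.

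Lists whose ratios had intervals that held 0 on the CPM scale, and which were higher in MSA-2 members with the TMM factors, included those of NF-kB feedback, NADPH oxidase, tertiary granules and MHC class I. NF-kB feedback genes, led by the inhibitor Nfkbia at 6849 CPM (6782 to 6916) and 6312 CPM (5270.1 to 7500.4), gave a log2 ratio of 0.02 (-0.15 to 0.19). The oxidase list gave -0.44 (-0.89 to 0.05), the list of tertiary granule genes -0.02 (-0.53 to 0.54) and MHC class I genes 0.16 (-0.09 to 0.43). The list of 24 genes of late-stage neutrophils in tumors gave 0.03 (-0.06 to 0.13), and 0.21 without sub-clusters 5 and 6. Its sum holds Ccl4, while of 23 genes that passed 4 were at least 2-fold higher and 7 lower, with a median of -0.55, close to the 31% lower and the -0.49 of all genes. The wider list of 34 cytokines and chemokines, which shares its abundant genes with the inflammatory list, gave 0.48 (0.41 to 0.54). MHC class II genes were low in MSA-2 members, at 78.3 CPM (71.3 to 85.8), and stood at 636 CPM (339 to 1088) in untreated members from 13 UMIs, 8 of them Cd74. The macrophage list above had the same direction, and the part of free RNA or of admixed cells in either was not tested.

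**Figure D2:**
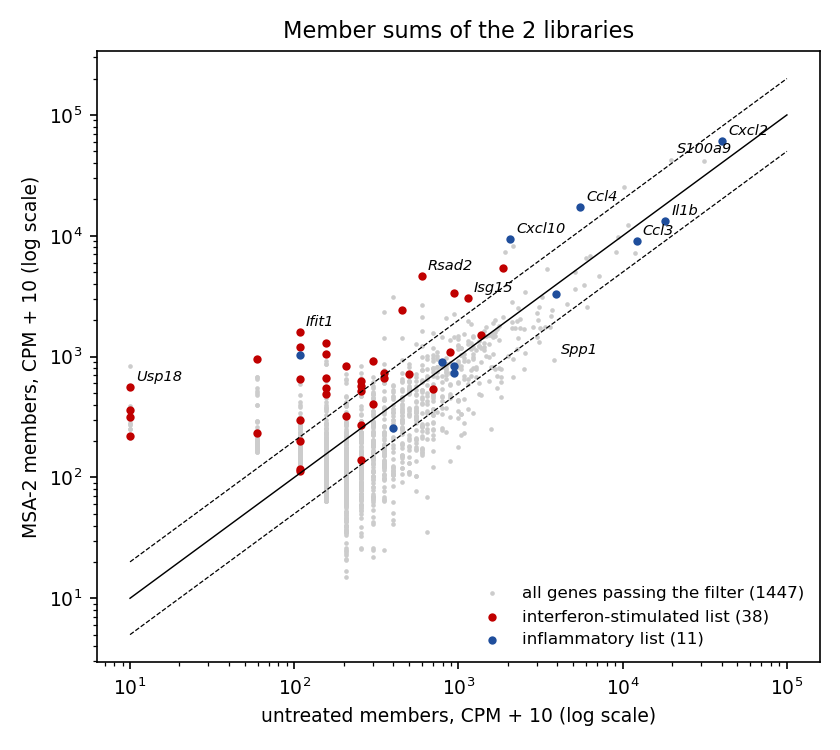
Each point is a gene with a mean of at least 100 CPM over both sums, with CPM plus 10 of untreated members on the horizontal axis and of MSA-2 members on the vertical axis, both on log scales. Red points are the 38 interferon-stimulated genes and blue points the 11 inflammatory genes that passed the filter, the solid line is equality and the dashed lines are 2-fold. The columns of points at the left are genes with 0, 1, 2 or 3 untreated UMIs, and Usp18 lies at 0.

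The genes past 2-fold rested on few untreated UMIs. Of the 161 genes at least 2-fold higher in MSA-2 members, 115 had at most 3 untreated UMIs and 17 had 0, and the median was 2 UMIs. Of the 448 at least 2-fold lower, 48 had at most 3 and 362 at most 10 untreated UMIs. Of all 1447 genes, 429 had at most 3 and 1115 at most 10. The share among the lower genes was thus close to that of all genes at 10 UMIs, but smaller at 3. The balance of the directions also depended on the scaling, since the TMM factors of 1.49 for untreated and 0.672 for MSA-2 members gave a median of 0.81 in place of -0.49 and counts of 617 higher and 53 lower, over the 1459 genes that then passed the filter. The 10 highest ratios all belonged to genes with 0 untreated UMIs, led by Cd69, an early activation antigen, at 822 CPM (799 to 845) and at least 5.6-fold higher. They also held Peli1, a ubiquitin ligase of Toll-like receptor signalling, and Saa3, an acute phase protein, at 546 CPM (527 to 565). A single MSA-2 barcode held 23.9% of the Saa3 UMIs. The lowest ratios were led by Clec4n, the receptor dectin-2, at 25.6 CPM (21.7 to 30.1) in MSA-2 members and 636 CPM (339 to 1088) in untreated members from 13 UMIs, 46.2% of them in a single barcode.

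Heterogeneity was then described among the MSA-2 members. In the 2484 members with at least 1000 UMIs, thinned to 1000 each, the variance over the mean of each gene across cells was taken as an index that is about 1 for counting error alone. Of 1991 genes with a mean of at least 0.05 UMI, 229 (11.5%) had an index of at least 1.5. Cxcl2 had the highest at 19.1, with a mean of 69.7 UMIs, followed by Fth1 at 18.9 and Ccl4 at 18.6. S100a9 (15.5), S100a8 (12.9) and Retnlg (12.5) came next with the heat shock gene Hspa1a (13.1), which had a mean of only 0.167 UMI and was therefore high in few cells. Slpi (10.8), Ccl3 (9.83), Cxcl3 (9.52), G0s2 (9.27), Spp1 (8.74), Cxcl10 (8.73), Ccl5 (8.36) and Il1b (7.90) completed the first 15. Apoe, Saa3, AW112010 and the mitochondrial mt-Atp6, also among the highest 20, were highest in sub-clusters 4, 5 or 6, described later. The index rises with the mean at a fixed relative spread, so its order is not an order of relative spread.

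Leiden clustering of the 2521 MSA-2 members gave 6 sub-clusters, of 888, 826, 450, 223, 80 and 54 barcodes. They are named by number and leading genes, and since they were cut from the same counts, their genes are a description and not a result. The first 4 had similar depths, with median UMIs of 1779.5, 1669, 2141 and 1955, and graded into each other. The cut between them depended on the settings. Across 10 other settings 4 to 14 sub-clusters were found, with an adjusted Rand index against the main cut (1 for the same cut, near 0 for unrelated ones) of 0.306 to 0.781. The written plan did not state whether scaled values are clipped or over which genes counts are scaled. Clustering was run in 4 such ways, which gave 5, 6, 6 and 7 sub-clusters, and the version kept, chosen after these had been seen, is the literal reading of the plan.

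**Figure D3:**
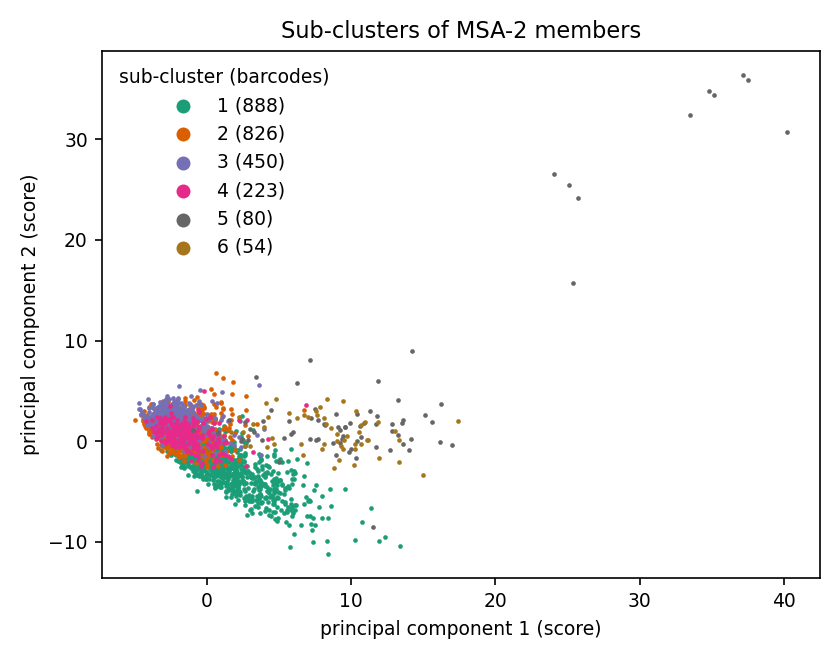
Each point is an MSA-2 member, placed by its scores on the first and second principal components of 1000 variable genes and coloured by sub-cluster, with barcodes per sub-cluster in the legend. Sub-clusters 1 to 4 form a single cloud, in which 1 and 3 lie at opposite ends, and sub-clusters 5 and 6 extend away from it.

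Sub-cluster 1, the largest with 888 barcodes, was led by Spp1, Hilpda, Hspa1a, Cxcl3 and Ankrd12. Hilpda, a hypoxia-induced protein of lipid droplets, measured 3126 CPM (3043 to 3211) against 732, 529 and 1579 CPM in sub-clusters 2, 3 and 4. Plin2, the coat protein of lipid droplets, measured 2317 CPM (2246 to 2390.4) against 928, 667 and 987 CPM. The hypoxia and glycolysis list summed to 8608 CPM (8470 to 8748) in this sub-cluster and to 4526, 4444 and 4598 CPM in sub-clusters 2, 3 and 4, with the glucose transporter Slc2a1 at 454 CPM against 130.2, 112 and 182. The list was not particular to this sub-cluster, since sub-clusters 5 and 6 stood at 8953 CPM (8761 to 9148) and 6911 CPM (6604 to 7228). The oxidoreductase Ero1l, another hypoxia gene, measured 604 CPM (567 to 641) against 131, 91.1 and 146 CPM. Of the chemokines, Cxcl2 at 82079 CPM (81651 to 82509), Cxcl3 at 6815 CPM (6692 to 6939.6) and Ccl3 at 14643 CPM (14462 to 14825) were highest here by sum. For Cxcl2 sub-cluster 4 was close, at 80858 CPM, with a median per barcode of 7.71% against 7.70% here. Haem oxygenase Hmox1 measured 267 CPM (243 to 293) against 42.5, 44.6 and 38.1 CPM. The interferon-stimulated list was lowest of the 4, at 32326 CPM (32057 to 32596), and Cxcl10 at 4955 CPM (4849.9 to 5061).

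Sub-cluster 2, with 826 barcodes, was led by Cxcl10, Ifitm1, Dhx40, Il1b and Trim30c. Cxcl10 measured 15262 CPM (15060.1 to 15465) and Il1b 20796 CPM (20560.3 to 21033), the highest levels of the 6. The interferon-stimulated list summed to 52954 CPM (52578 to 53332), with Rsad2 at 6542 CPM (6411 to 6676) against 3221 CPM in sub-cluster 1, and the guanylate-binding protein Gbp5 at 765 CPM (721 to 812) against 241. Interferon-stimulated genes and Il1b were thus high in the same sub-cluster. Sub-cluster 4, with 223 barcodes, was led by Csf3, Slco3a1, Il1a, Aoah and AW112010. Csf3 encodes G-CSF, the growth factor of neutrophils themselves, and measured 434 CPM (377 to 498) against 195, 91.2 and 55.2 CPM in sub-clusters 1, 2 and 3. After thinning, Csf3 had a UMI in 17.2% of its barcodes (27.4% unthinned) against 1.24% of T cells. Il1a measured 1965 CPM (1840.3 to 2095) against 919.8, 858 and 819.9 CPM, and Ccl4, at 28183 CPM (27706 to 28666), was the highest of the 6. The inflammatory list was at 159319 CPM (158183 to 160462), above the 146799, 141492 and 104687 CPM of the others.

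Sub-cluster 3, with 450 barcodes, was led by Ly6g, Ngp, Ifitm6, Retnlg and Pglyrp1. S100a8 and S100a9, which chose the members and are given as a description, stood at a median of 11.9% of UMIs against 5.72%, 6.81% and 6.69% in sub-clusters 1, 2 and 4. Ly6g measured 531 CPM (488 to 577) against 41.4, 78.7 and 95.3 CPM, and Retnlg 21122 CPM (20843 to 21405). Granule genes made late in the marrow were highest here, with Ngp at 312 CPM (279 to 348), Mmp8 at 1017 CPM (956 to 1080) against 269, 293 and 301 CPM, and Cd177 at 95 CPM (77.1 to 116) against 8.17, 9.75 and 6.35. The primary granule list had 7 UMIs here, 6 of them Prtn3, against 1, 2, 0 and 0 UMIs in sub-clusters 1, 2, 4 and 5 and 11 UMIs in sub-cluster 6. Ly6c2 monocytes of the same library held Prtn3 at 16.3 CPM. The inflammatory list was lowest of the 4, at 104687 CPM (104063 to 105313), with Ccl3 at 4748 CPM (4616 to 4882) against 14643 CPM in sub-cluster 1. The interferon-stimulated list was as high as in sub-cluster 2, at 52849 CPM (52406 to 53294). The sub-cluster with the most late marrow granule transcripts thus carried interferon-stimulated transcripts as well.

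**Figure D4:**
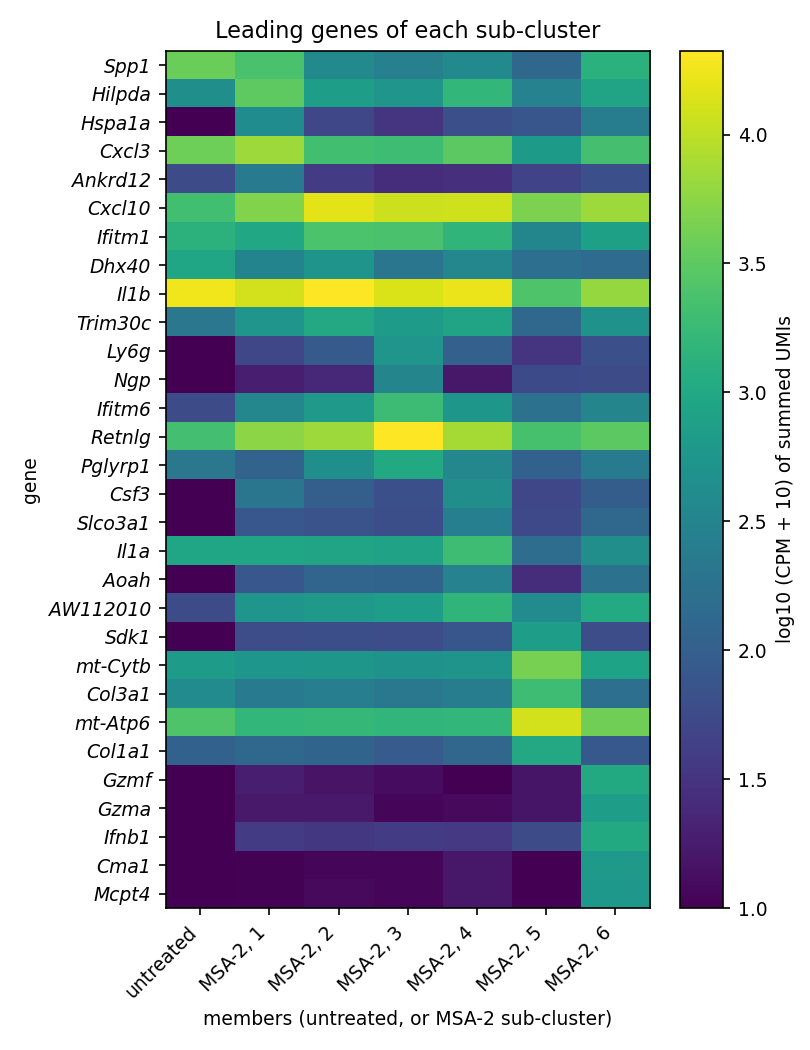
Colours show log10 of CPM plus 10 of the summed UMIs for the 5 leading genes of each sub-cluster (rows), in untreated members and in the 6 MSA-2 sub-clusters (columns). Ly6g and Ngp stand out in sub-cluster 3, Spp1 and Hilpda in sub-cluster 1, collagen and mitochondrial genes in sub-cluster 5 and Gzmf, Gzma, Ifnb1, Cma1 and Mcpt4 in sub-cluster 6. Single barcodes set Cma1 and Mcpt4 there, and Spp1 in the untreated column.

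The spread of interferon-stimulated genes was also seen across clusters cut without them. When the 46 listed genes were left out of the variable genes, 6 clusters were again found, and over them the list ran from 19054 CPM (18772 to 19340) to 54220 CPM (53909 to 54533). The lowest value belonged to 75 deep barcodes, all of them of sub-cluster 5. The next lowest, 32141 CPM, belonged to 908 barcodes of which 87.8% were in sub-cluster 1, and the highest to 1096 barcodes, most of them in sub-cluster 2. Across the 2484 thinned members, the summed list had a Spearman correlation of -0.44 with the hypoxia and glycolysis list and of 0.62 with Cxcl10. Within sub-clusters 1, 2, 3 and 4 the first correlation was -0.34, -0.26, -0.14 and -0.21, so it was weaker inside each than across them. With the inflammatory list, which holds Cxcl10, the correlation was -0.02, and -0.10 in the 2351 cells of sub-clusters 1 to 4. S100a8 and S100a9 together had a correlation of 0.61 with Retnlg, but all of these are genes of the rule and this is a description. The correlation of S100a8 and S100a9 with the inflammatory list was -0.12, and -0.24 in sub-clusters 1 to 4. The cells share a library and a fixed depth, and the correlations describe them with no test.

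**Figure D5:**
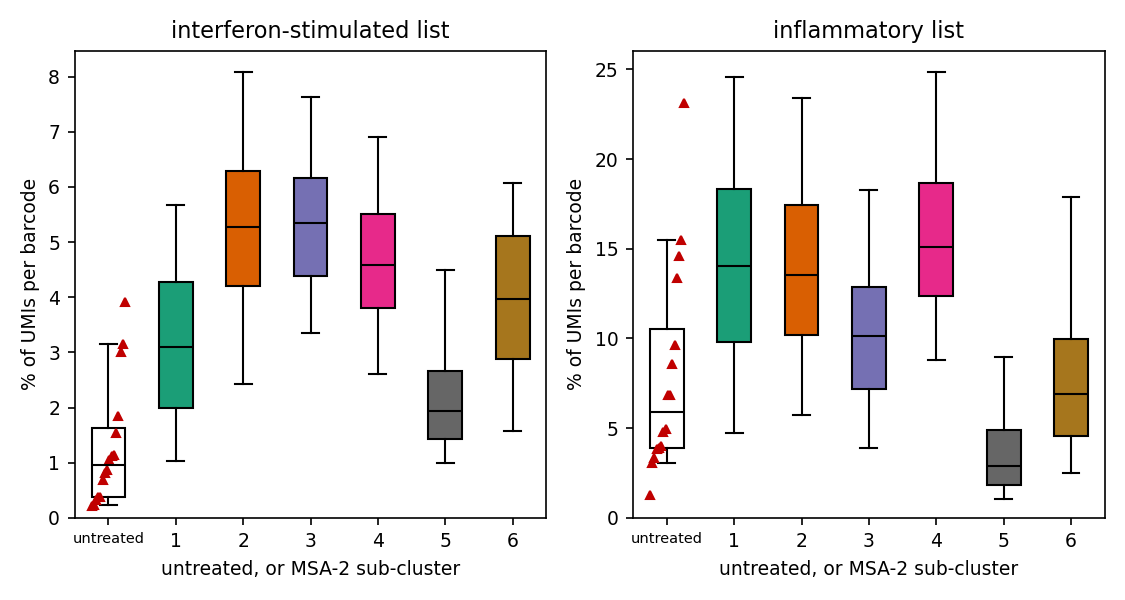
Boxes show the percent of UMIs per barcode from the interferon-stimulated list (left) and the inflammatory list (right) in the 16 untreated members and the MSA-2 sub-clusters 1 to 6, with the median, the quartiles and whiskers at the 5th and 95th percentiles. Red triangles are the single untreated members. The untreated median lies below the boxes of sub-clusters 1 to 4 in both panels. On the right 4 of 16 untreated members lie above the median of all MSA-2 members, against 0 on the left.

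Sub-clusters 5 and 6 held 134 barcodes whose leading genes include markers of other cell types. Sub-cluster 5, with 80 barcodes, had a median of 10532.5 UMIs and 3362 genes and was led by Sdk1, mt-Cytb, Col3a1, mt-Atp6 and Col1a1, and Scrublet marked 46 of them. The fibroblast and endothelial list summed to 5557 CPM (5406 to 5711) against 675 CPM in sub-clusters 1 to 4 together. Sub-cluster 6, with 54 barcodes and a median of 4585 UMIs, was led by Gzmf, Gzma, Ifnb1, Cma1 and Mcpt4, and Scrublet marked 17. Several of these genes came from few barcodes, and of all UMIs in MSA-2 members a single barcode held 89.9% for the mast cell protease Cma1, 85.3% for Mcpt4, 54.1% for the granzyme Gzmf and 40.5% for Gzma, against 10.2% for Ifnb1. The T and NK list summed to 1240 CPM, the Ly6c2 monocyte list to 3680.2 and the mast cell list to 979, against 14.2, 586 and 15.5 CPM in sub-clusters 1 to 4. The mast cell sum rests largely on Mcpt4 and on Cpa3, of which a single barcode held 93.2%, and does not describe the 54 barcodes. Whether a barcode held more than 1 cell was not tested beyond the doublet calls.

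The untreated members were set beside the MSA-2 sub-clusters by the same lists. By sum on the CPM scale, their hypoxia and glycolysis list, at 8514 CPM (7296 to 9878), was nearest to sub-cluster 1. By median per barcode, at 0.704%, it was nearest to sub-cluster 5 (0.727%), before sub-cluster 1 (0.780%). Of the untreated members, 13 of 16 lay above the MSA-2 median per barcode. The direction of this list against MSA-2 members turned with the TMM factors, so the nearness depends on the scaling. Hcar2, a receptor of niacin and hydroxybutyrate, measured 1566 CPM (1071 to 2211) against 1424 CPM in sub-cluster 1 and 468 CPM in sub-cluster 3. Basp1, a membrane-associated protein, measured 2153 CPM (1564 to 2890.4) against 1689.7 and 609.6 CPM. Neither gene is among the 10 that led sub-cluster 1, and most of those 10 did not follow. Hilpda and Hspa1a had 440.4 CPM (201 to 836) and 0 UMIs in untreated members, and Ero1l was at 0 as well. Cxcl3 stood at 3915 CPM against 6815 CPM in sub-cluster 1. Ankrd12, Cstdc4, Ccl6, Plin2 and Chka were also lower by sum than in sub-cluster 1, while Spp1 was higher from a single barcode. Of the genes that led sub-cluster 3, Ly6g and Ngp were at 0 UMIs in untreated members, Ifitm6 at 1, Pglyrp1 at 4 and the rule gene Retnlg at 44, while Lyz2, a lysozyme gene also high in that sub-cluster, was not lower in untreated members, at 1028 CPM (636 to 1571) against 733 CPM. At 20436 UMIs the untreated members could still hold up to 147 CPM of a gene at 0, which is under the Ly6g and Ngp levels of sub-cluster 3 and above those of the others.

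Against other myeloid cells of the MSA-2 library, members differed by more than their identity genes. The comparison set Ly6c2 monocytes, 580 barcodes with at least 3 UMIs of Ly6c2, Ccr2 and F13a1 that were not members, and the 913 C1q macrophages beside the members, with no test. Of 1475 genes, 248 (16.8%) were at least 2-fold higher in members than in Ly6c2 monocytes and 487 (33%) at least 2-fold lower. Of 1453 genes, 225 (15.5%) were at least 2-fold higher in members than in C1q macrophages and 330 (22.7%) at least 2-fold lower. Of the inflammatory list, 7 of 12 genes that passed were at least 2-fold higher and 2 lower than in Ly6c2 monocytes, with a median log2 ratio of 1.69 against -0.60 over all genes. Cxcl2 measured 5441 CPM in Ly6c2 monocytes and 5209 CPM in C1q macrophages, and Il1b 857 and 563 CPM. The 2 lower genes were Tnf and Il6, with Tnf at 245 CPM in members against 576 and 905, and Il6 at 62.9 against 202 and 119. Ccl5, a CC chemokine outside that list, was also lower in members, at 914 against 4080.1 and 5630.3. Of the wider list of 34 cytokines and chemokines, 8 of 22 genes that passed were at least 2-fold higher and 9 lower than in Ly6c2 monocytes. Against C1q macrophages 7 of 21 were higher and 9 lower. In the interferon-stimulated list 19 of 42 genes were at least 2-fold higher in members than in Ly6c2 monocytes and 0 lower, with Slfn4 at 3369 against 682 CPM and Isg20 at 903 against 106. Against C1q macrophages 13 of 41 were higher and 4 lower, the RNA sensor Ifih1 among the latter at 660.1 against 2183 CPM.

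Barcodes under the S100 limit were examined because the limit decides the untreated count. With at least 3 UMIs and at least 0.2% of UMIs from Retnlg, Hdc, Csf3r, Cxcr2 and Il1r2, under 1% from S100a8 and S100a9 and under 0.1% from C1q genes, 120 MSA-2 and 27 untreated barcodes were found. Adding them to the members lowered the log2 ratio of the shares to 5.95 (5.51 to 6.42). The untreated 27 did not carry the neutrophil genes at the level of members, with Retnlg at 113 CPM (51.5 to 214) and Csf3r at 50.1 CPM (13.6 to 128), while Il1r2, which other myeloid cells also express, stood at 2816 CPM (2460.2 to 3209). Their MHC class II list summed to 36622 CPM (35307 to 37974) and Cd74 to 11565 CPM (10831 to 12335), markers of antigen-presenting cells that were low in members. The 120 MSA-2 barcodes were closer to members, with Cxcl2 at 28359.5 CPM (27828 to 28898), Retnlg at 1496 CPM (1376 to 1624) and MHC class II genes at 557 CPM (485 to 637). Retnlg and Csf3r are genes of this gate, and MHC class II genes were also lower in C1q macrophages of the MSA-2 library, at 3229 CPM against 21962.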

How the data were processed

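The authors deposited UMI counts per gene and barcode for 32285 features in 2 droplet libraries, made with Cell Ranger (7.0.0 in the submitters' processing notes, which also name Seurat 4.3.0 and mm10; other versions are given elsewhere in the sources). Members and lists were chosen with earlier results of these data known. Counts of members were summed and scaled to CPM. Exact 95% intervals came from the Poisson distribution for sums, from Clopper-Pearson for percentages and from a conditional binomial for ratios. Where no UMI was counted, up to 3 were allowed. Genes named come from the lists, the 20 most abundant, the 10 highest and 10 lowest ratios, the 20 highest indices of uneven expression and the 5 leading genes of each sub-cluster. Which of them are printed was decided with their values seen. MSA-2 members were clustered in scanpy 1.11.5 (genes in at least 10 members, 1000 variable genes without mitochondrial and ribosomal genes, 20 components, 15 neighbours, resolution 0.5, seed 1). Doublets were called with Scrublet (4.08% of kept MSA-2 and 5.02% of kept untreated barcodes) and kept. Scaling alternatives used edgeR 4.0.16. Computations were tested on simulated data.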

Additional observations from a re-analysis of the deposited data

Results flagged for a closer look

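Besides the members, 240 barcodes of the MSA-2 library met every limit except that of 500 genes, against 0 in the untreated library. They were not used in the main comparisons. With a limit of 200 genes the log2 ratio of the shares was 7.40, against 7.31.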

How the results depend on the processing

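The share ratio kept its sign under 9 alternatives, and the interferon-stimulated and inflammatory list ratios under 13 each. Other list ratios, hypoxia among them, turned with TMM factors. At least 1000 genes left 0 untreated members, so that alternative gave no value. Some alternatives were chosen after seeing the data, namely those on the S100-low barcodes, at most 1500 genes, sub-clusters 5 and 6, and details of the clustering. The log2 ratio of the shares went from 7.31 to 5.95 with the S100-low barcodes added. That of the interferon-stimulated list went from 1.64 to 1.10 with S100a8 and S100a9 at 0.5%, 1.93 at 2%, 1.35 with the S100-low barcodes and 2.79 with TMM factors. That of the inflammatory list went from 0.46 to 0.30 with S100a8 and S100a9 at 0.5%, 0.63 with no C1q limit, 0.60 without doublet calls, 0.69 without sub-clusters 5 and 6 and also with at most 1500 genes, 1.78 with the S100-low barcodes, 1.61 with TMM factors and 0.72 with equal weight per cell. Genes at least 2-fold higher and lower went from 161 and 448 to 617 and 53 with TMM factors, 3168 and 2076 with no low-expression filter (more genes tested) and 92 and 178 with a mean of at least 200 CPM (fewer genes tested). Uneven genes went from 229 to 92 thinned to 500 UMIs, all of them among the 229, and to 365 thinned to 1500. At resolution 1 there were 14 sub-clusters in place of 6. The cause of the other changes was not tested. No paired analysis was possible because each condition has 1 library. Depth limits the untreated side throughout, where 16 barcodes held 20436 UMIs.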
